A study of Arabidopsis thaliana with 4 samples.

Results

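Glutathione S-transferases (GSTs) were taken as every locus whose annotation in the deposited gene tables contains the name glutathione S-transferase, in upper or lower case. This choice gave 53 of the 23695 loci with any read. The RNA came from hypocotyls, the embryonic stem, of 4-day-old Arabidopsis thaliana seedlings that had grown in darkness on culture medium. The wild type Col-0 and an arf7 T-DNA mutant, in which the gene of the transcription factor AUXIN RESPONSE FACTOR 7 carries an insertion, were each raised on medium holding 500 nM naphthalene acetic acid (NAA), a synthetic auxin, or on medium lacking NAA (mock). Every combination of genotype and treatment gave 1 library, the number of plants behind a library was not given, and no further genotype or agent was labelled. Each difference below is therefore between single libraries and has no replicate check.

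GSTs join the tripeptide glutathione to reactive small molecules, and the conjugates are then moved into the vacuole by transporters of the ABCC family. In plants the tau and phi classes are the large families, and many of their genes are induced by herbicide safeners, pathogens, salicylic acid or high auxin. The as-1 element, whose core is TGACG, binds TGA factors and is the promoter element best known for these inductions, whereas ARF factors such as ARF7 bind auxin response elements such as TGTCTC and TGTCGG.

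By class, 27 loci belonged to tau, 11 to phi, 3 to theta, 2 to zeta and 1 to lambda. A further 2 loci encode subunits of elongation factor EF1B, which carry a GST-like domain, 1 is a microsomal GST, and 6 have no class in their annotation. Only loci averaging 1 CPM or more (CPM are reads scaled to a common library size, here with the TMM method) were compared, which kept 44 of the 53 GST loci and 17317 loci in all. GSTF14, GSTU9 and AT1G77290 passed that minimum only through their highest library, so that a difference was built into their choice. The 9 loci below it were GSTU3, GSTU21, GSTU28, GSTF11, GSTF12, GSTF13, GSTZ2, the microsomal AT1G65820 and AT1G19550, none of which held more than 12 reads in a library. A locus was called higher or lower where 2 libraries differed by at least 2-fold and the 95% counting interval of the fold, given in parentheses throughout, excluded 1. Where 4 read counts follow each other with no further label, they stand for Col-0 without NAA, Col-0 with NAA, arf7 without NAA and arf7 with NAA. A counting interval covers counting error only and leaves out any spread between plants.

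Depth was alike: the 17317 compared loci had 7394305 reads without and 7155903 with NAA in Col-0, and 6983607 without and 7187800 with NAA in arf7. ARF7 itself was barely covered, with 8 reads without and 8 with NAA in Col-0, and 3 without and 1 with NAA in arf7, over at most 2.03% of the model, so that the genotype labels could not be checked well from it. The Col-0 NAA library stood apart: its rank correlation with the other libraries over all compared loci was 0.847 to 0.881, against 0.968 to 0.981 among the other libraries. It enters the NAA comparison in Col-0 and the genotype comparison with NAA, whereas the NAA comparison in arf7 and the genotype comparison without NAA do not use it. Root hair markers were read as a list of 8 genes and summed to 18 reads without and 967 with NAA in Col-0, and 11 without and 352 with NAA in arf7, and all 7 that were compared were higher with NAA in both genotypes. The 4 genes of the light-grown leaf list summed to 44560, 66896, 23121 and 25288 reads, none of them at 0 in any library, and CAB1 alone held 39540, 62596, 18872 and 21007 of these. With NAA in Col-0, LHCB2.1 was lower, 2.05-fold (1.88 to 2.24), the other 3 met no call and the median log2 fold of the list was -0.01. In bulk samples, fewer cells of a type and less RNA per cell cannot be told apart. No gene marks the hypocotyl alone among the lists used, and of 7 growth genes of etiolated hypocotyls 4 were compared. All 4 were higher with NAA in Col-0 and none with NAA in arf7, and 2 were lower in arf7 without and 3 with NAA. The wall enzyme XTH4 had 11095, 22321, 8292 and 13809 reads, PRE1 had 16, 83, 0 and 0, SAUR19 had 9, 88, 0 and 1, and PRE5 had 4, 29, 4 and 2. Of the shoot apex genes, WUS and CLV3 had at most 1 read between them in a library, whereas STM had 33, 67, 31 and 47 and was 2.2-fold higher with NAA in Col-0 (1.43 to 3.44). Of the seed storage genes, CRA1 and CRU3 had 0 reads. OLEO1 had 2, 26, 1 and 2 reads and was 14.1-fold higher with NAA in Col-0 (3.52 to 122), and SESA1 had 7, 6, 25 and 6 and was lower with NAA in arf7 and higher in arf7 without NAA. The part of any of these lists in the GST values was not tested.

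Well-read GST loci with the largest folds under NAA in Col-0, and the one with the most reads, are shown first by their promoters, each from 250 bases before to 50 bases after the gene start of the RefSeq annotation. The sequences were read from TAIR10.1 on the strand of the gene, 5′ to 3′, and capitals mark TGACG or its reverse complement. GSTU25 (chr1:5871774-5872073, forward strand) and GSTU27 (chr3:15660520-15660819, forward strand) had the largest rises among loci that averaged 5 CPM or more. GSTU12 (chr1:26335581-26335880, reverse strand) and its neighbour GSTU11 (chr1:26338769-26339068, reverse strand) had the largest falls by the same minimum, and GSTF8 (chr2:19556076-19556375, forward strand) held the most reads.
GSTU25: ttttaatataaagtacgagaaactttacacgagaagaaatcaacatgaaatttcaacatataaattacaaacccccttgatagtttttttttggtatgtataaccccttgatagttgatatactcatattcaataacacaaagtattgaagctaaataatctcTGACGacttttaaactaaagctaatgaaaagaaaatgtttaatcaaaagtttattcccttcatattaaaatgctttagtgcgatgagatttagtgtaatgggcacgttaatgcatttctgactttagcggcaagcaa
GSTU27: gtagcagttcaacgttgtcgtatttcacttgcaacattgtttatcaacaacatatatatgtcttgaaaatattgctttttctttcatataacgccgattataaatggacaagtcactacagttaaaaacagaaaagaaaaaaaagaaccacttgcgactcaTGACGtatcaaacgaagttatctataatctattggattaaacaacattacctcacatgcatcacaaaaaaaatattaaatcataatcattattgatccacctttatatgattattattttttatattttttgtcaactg
GSTU12: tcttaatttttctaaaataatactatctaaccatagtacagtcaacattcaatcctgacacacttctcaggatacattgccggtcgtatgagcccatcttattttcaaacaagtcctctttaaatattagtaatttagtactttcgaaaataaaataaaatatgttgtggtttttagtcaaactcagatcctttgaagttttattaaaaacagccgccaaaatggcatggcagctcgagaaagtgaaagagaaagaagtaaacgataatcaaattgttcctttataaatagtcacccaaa
GSTU11: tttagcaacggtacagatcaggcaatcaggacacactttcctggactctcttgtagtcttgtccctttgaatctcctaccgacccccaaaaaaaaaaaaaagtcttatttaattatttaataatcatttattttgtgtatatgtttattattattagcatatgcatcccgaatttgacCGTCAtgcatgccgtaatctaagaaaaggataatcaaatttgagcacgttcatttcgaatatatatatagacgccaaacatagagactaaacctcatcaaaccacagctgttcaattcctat
GSTF8: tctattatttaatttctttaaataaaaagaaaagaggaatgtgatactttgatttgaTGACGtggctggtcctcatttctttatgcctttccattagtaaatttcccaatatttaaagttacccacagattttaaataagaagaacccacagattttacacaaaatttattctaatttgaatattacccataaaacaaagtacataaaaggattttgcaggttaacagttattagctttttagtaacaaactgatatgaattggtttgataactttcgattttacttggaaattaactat
The as-1 core stood at -87 relative to the start in GSTU25, -89 in GSTU27, -72 in GSTU11 and -193 in GSTF8, and was not found in this window of GSTU12. All 53 GST loci were found in the RefSeq annotation, and none of the 3 motifs searched, on both strands, contains another. TGACG was present in 19 of the 53 GST promoters, or 35.8%, against 23.1% of the 27443 promoters of protein-coding genes. It was present in 6 of the 8 GST loci higher with NAA in Col-0 and in 7 of the 16 that were lower. It was also present in 4 of the 20 that met neither call. Promoters holding it and promoters lacking it were thus found among loci of both directions. The 8 higher loci include GSTU9 and AT1G77290, which hold it, and GSTF14, which lacks it. These loci passed the level minimum only through the Col-0 NAA library, so the share among higher loci depends in part on that choice. TGTCTC was present in 3 of the 53 GST promoters against 14.2% of all, namely those of GSTU10, AT1G77290 and GSTL3. TGTCGG was present in another 3, namely GSTU23, GSTF10 and GSTL3 again, against 5.12% of all. A match is a description of these letters and not a bound site.

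Most of the GST transcript came from a few loci, and these are described before the responses. On the RPKM scale, which divides reads by model length, GSTF10 had the highest mean over the libraries, followed by GSTF8, GSTU19, GSTF2, GSTU13 and GSTF9. GSTF10 stood at 1655 in Col-0 mock and 714 in Col-0 NAA, and at 1870 in arf7 mock and 1169 in arf7 NAA. These 6 loci together held 80.6% of the GST reads without and 73.2% with NAA in Col-0, and 79.2% without and 82.4% with NAA in arf7, on the CPM scale. Of all reads in a library, the 53 GST loci took 0.795% without and 0.347% with NAA in Col-0, and 0.849% without and 0.554% with NAA in arf7. The share was thus lowest in the Col-0 NAA library, next lowest in arf7 NAA, and about alike in the mock libraries.

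**Figure D1:**
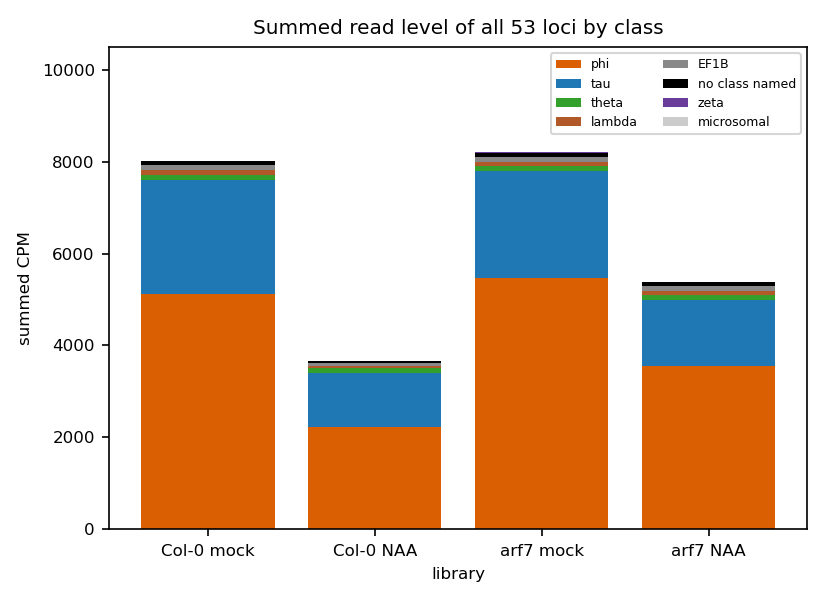
Summed CPM (vertical axis) of the 53 GST loci in each of the 4 libraries, stacked by class. The bars reach 8024 without and 3663 with NAA in Col-0, and 8204 without and 5381 with NAA in arf7, and phi and tau loci make up nearly the whole of each bar.

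With NAA in Col-0, GST transcript was lower in total while the single loci went both ways. The summed level of the 53 loci was 8024 CPM in the mock and 3663 CPM in the NAA library, 2.19-fold lower. Among the 44 compared loci, 16 were lower (36.4%, against 13.1% of all compared loci) and 8 were higher (18.2%, against 15.2%). The share lower was above that of all loci. The count of higher loci depended on the minimum level, since GSTF14, GSTU9 and AT1G77290 are among the 8, and at a minimum mean of 5 CPM 3 of 34 loci were higher, against 12.6% of all loci at that minimum. The median log2 fold over the GST loci was -0.49, beside -0.01 over all compared loci, and was -0.87 beside -0.03 at the minimum of 5 CPM. Of the 22 compared loci with the higher mean RPKM, 12 were lower and 1 was higher, with a median log2 fold of -1.09. Of the other 22, with a mean RPKM of at most 21.3, 4 were lower and 7 were higher, with a median of 0.56. Loci called lower were thus mostly among the more abundant ones, and those called higher were, apart from GSTU27, among the less abundant ones, which is also where the loci that passed only through their highest library lie. The same split was not made over all compared loci, whose share higher was also smaller at the minimum of 5 CPM (12.6%, against 15.2%).

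**Figure D2:**
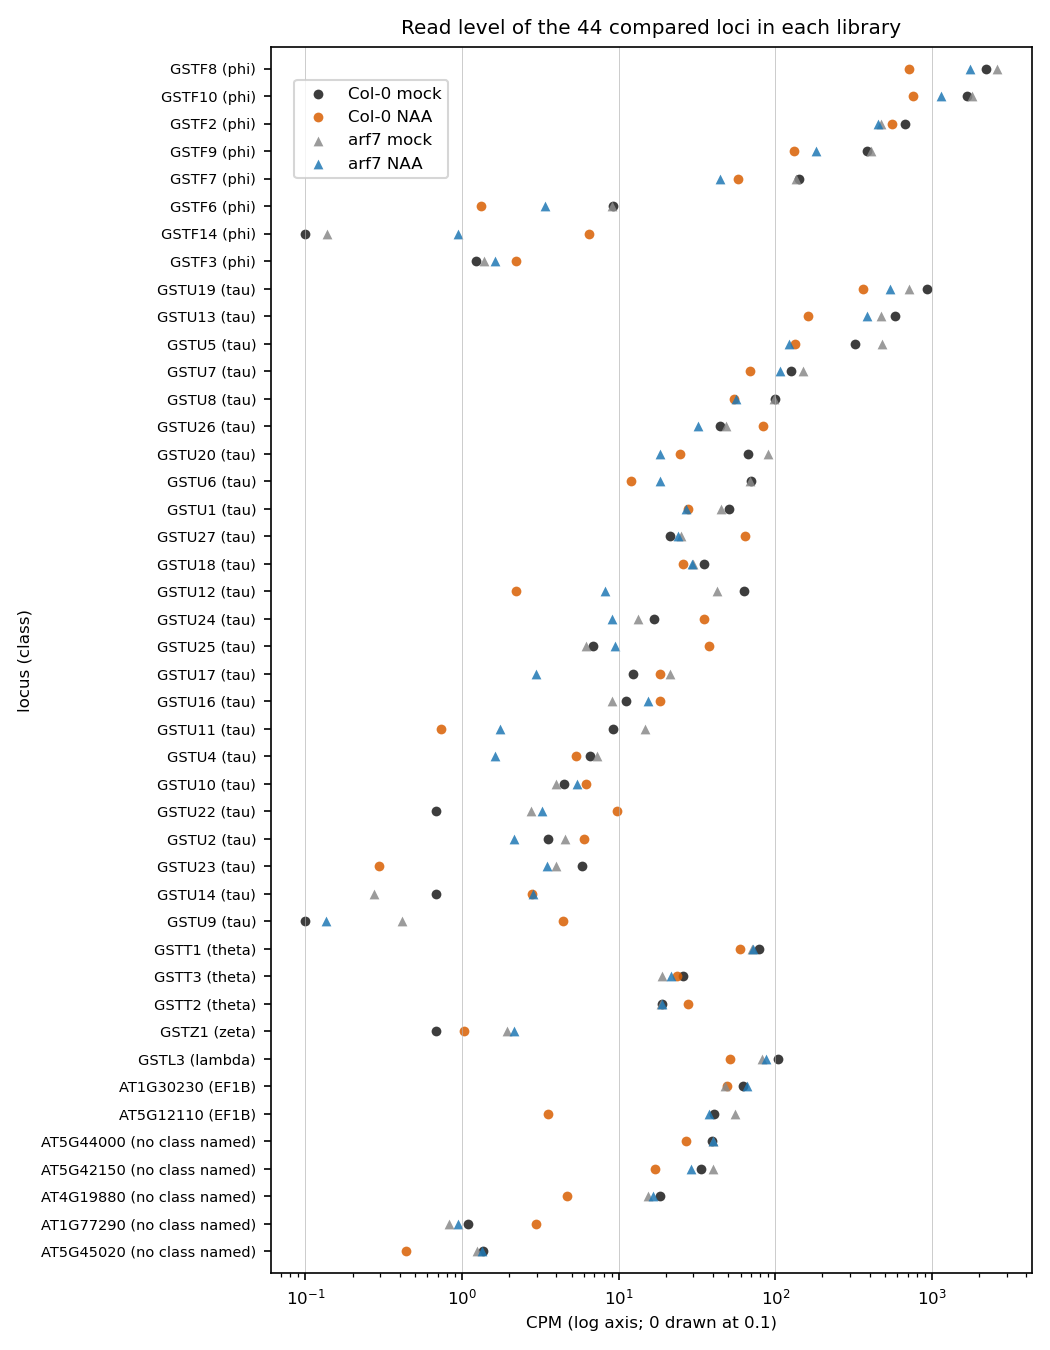
Level of the 44 compared GST loci (vertical axis, ordered by class and then by mean level) in CPM on a log axis, with 1 point for each library and a CPM of 0 drawn at 0.1. Orange points (Col-0 NAA) lie left of the others for GSTF8, GSTF10, GSTF9, GSTU19 and GSTU13, among others, and right of them for GSTU25, GSTU24, GSTU27, GSTU22, GSTU9 and GSTF14.

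Phi class loci were mostly lower with NAA in Col-0, with 5 of the 8 compared lower and 1, GSTF14, higher. GSTF8, a widely used marker of early stress responses, held 16352 reads without and 4862 with NAA in Col-0, and 18948 without and 12898 with NAA in arf7. The Col-0 NAA library was the lowest, and both mock libraries were above both NAA libraries. GSTF8 was 3.11-fold lower with NAA in Col-0 (3.01 to 3.21). In arf7 it was 1.5-fold lower (1.47 to 1.54), below the 2-fold minimum. GSTF10, whose protein is known to bind the receptor kinase BAK1, had 12285, 5134, 13108 and 8439 reads. It was 2.21-fold lower in Col-0 (2.14 to 2.29) and 1.59-fold lower in arf7 (1.55 to 1.63), so that the second missed the call, and the log2 folds differed by 0.48 (0.42 to 0.54). GSTF9, its neighbour on chromosome 2, had 2838, 899, 2966 and 1338 reads and met the call in both genotypes, at 2.92-fold lower (2.71 to 3.15) in Col-0 and 2.27-fold lower (2.13 to 2.42) in arf7. Reads lay over only 27.2 to 27.3% of the GSTF9 model, so that this locus was measured on a part of its length.

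GSTF6 and GSTF7 are neighbours on chromosome 1 that respond to salicylic acid and pathogens, and GSTF6 takes part in the synthesis of the phytoalexin camalexin. GSTF7 had 1043 reads without and 395 with NAA in Col-0, and 982 without and 329 with NAA in arf7. Both NAA libraries were below both mock libraries, at 2.44-fold lower (2.17 to 2.75) in Col-0 and 3.05-fold lower (2.69 to 3.47) in arf7. GSTF6 had 68, 9, 66 and 25 reads, which was 6.99-fold lower in Col-0 (3.47 to 15.9) and 2.7-fold lower in arf7 (1.68 to 4.47). The coding sequences of this pair are 94.7% identical, and reads covered 8.87 to 21.5% of GSTF6, so the split of reads between them is uncertain. GSTF2, known as an auxin-binding GST, had 4927, 3769, 3435 and 3339 reads. It was 1.21-fold lower with NAA in Col-0 (1.16 to 1.26) and met no call in any comparison. Its coding sequence is 94.5% identical to that of GSTF3, which had 9 to 15 reads. GSTF14 went the other way, with 0 reads without and 44 with NAA in Col-0, and 1 without and 7 with NAA in arf7. With the 0 set at a floor of 3 reads in that library, it was at least 15.9-fold higher with NAA in Col-0.

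Tau class loci were split in Col-0, with 8 of the 24 compared lower and 6 higher. GSTU19, one of the most abundant tau GSTs and a target of herbicide safeners, had 6806 reads without and 2464 with NAA in Col-0, and 5156 without and 4013 with NAA in arf7. It was 2.55-fold lower in Col-0 (2.44 to 2.68) and 1.31-fold lower in arf7 (1.26 to 1.37). GSTU13, which acts in the immune metabolism of indole glucosinolates, had 4267, 1094, 3441 and 2834 reads. Its Col-0 NAA library was the lowest by far, at 3.61-fold lower than mock (3.37 to 3.86), while arf7 showed 1.24-fold (1.18 to 1.31). GSTU12 had the largest fall among loci that averaged 5 CPM or more, with 464 reads without and 15 with NAA in Col-0, and 308 without and 61 with NAA in arf7. That was 28.6-fold lower in Col-0 (17.2 to 51.5) and 5.17-fold lower in arf7 (3.92 to 6.92). GSTU11, beside it on chromosome 1, had 68, 5, 107 and 13 reads and was 12.6-fold lower (5.13 to 40.0) and 8.42-fold lower (4.72 to 16.3). Both genotypes thus had less GSTU12 and GSTU11 with NAA, and the promoters of both are shown above.

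GSTU5, GSTU6 and GSTU20 were lower with NAA in both genotypes as well. GSTU5 had 2364 reads without and 902 with NAA in Col-0, and 3456 without and 910 with NAA in arf7, 2.42-fold lower in Col-0 (2.24 to 2.62) and 3.89-fold lower in arf7 (3.61 to 4.19). The NAA libraries of the genotypes lay close together, while the arf7 mock library was the highest. GSTU6 had 511, 81, 501 and 137 reads, and was 5.84-fold lower (4.61 to 7.47) and 3.74-fold lower (3.09 to 4.56). GSTU20, whose protein binds the jasmonate-conjugating enzyme JAR1, had 488, 167, 653 and 136 reads, and was 2.7-fold lower (2.26 to 3.24) and 4.91-fold lower (4.08 to 5.96). GSTU8 had 730, 370, 708 and 414 reads, and its folds of 1.82 (1.61 to 2.07) and 1.75 (1.55 to 1.98) lower stayed under the 2-fold minimum.

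The tau loci that were higher with NAA in Col-0 included GSTU24 and GSTU25, which conjugate the explosive TNT. GSTU25 had 50 reads without and 258 with NAA in Col-0, and 45 without and 70 with NAA in arf7. Col-0 NAA stood above the other libraries, at 5.58-fold higher than mock (4.11 to 7.71), while in arf7 the fold was 1.52 (1.03 to 2.26). GSTU24 had 123, 237, 96 and 67 reads, 2.08-fold higher in Col-0 (1.67 to 2.61). Scaled by library totals in place of TMM, its log2 fold in Col-0 was 0.99, just under the minimum. In arf7 it was 1.47-fold lower (1.06 to 2.03), which met no call. GSTU27 had 157, 433, 181 and 178 reads, with Col-0 NAA again alone at the top, 2.98-fold above mock (2.48 to 3.6). The low-count loci GSTU22, GSTU14 and GSTU9 were also higher. GSTU22 had 5, 66, 20 and 24 reads, 14.3-fold higher (5.82 to 45.4), and GSTU9 had 0, 30, 3 and 1 reads, at least 10.8-fold higher against the floor. GSTU14 had 5, 19, 2 and 21 reads and was the only GST locus higher with NAA in both genotypes.

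Outside these classes, the 3 theta loci, GSTT1, GSTT2 and GSTT3, met no call in any of the 4 comparisons, and their summed level was 123 CPM without and 111 with NAA in Col-0, and 109 without and 112 with NAA in arf7. GSTL3, a lambda GST that reduces flavonol conjugates, was 2.05-fold lower with NAA in Col-0 (1.8 to 2.33), with 769, 347, 596 and 649 reads. AT5G12110, an EF1B subunit, had 297 reads without and 24 with NAA in Col-0, and 403 without and 280 with NAA in arf7, 11.4-fold lower in Col-0 (7.54 to 18.1). AT4G19880 had 134, 32, 112 and 123 reads, 3.87-fold lower in Col-0 (2.62 to 5.89), with reads over 8.83 to 12.8% of its model. Col-0 NAA was the lowest library for each of these 3 loci. AT1G77290, with 8, 20, 6 and 7 reads, was the remaining locus that was higher. Relatives that the annotation names otherwise were mostly lower too: the lambda GST GSTL2 was 4.87-fold lower (3.85 to 6.22), and the dehydroascorbate reductases DHAR1 and DHAR3, which regenerate ascorbate with glutathione, were 4.56-fold (3.68 to 5.7) and 2.21-fold (1.93 to 2.53) lower. Reads lay over at most 10.6% of the DHAR1 model. DHAR2 was 1.59-fold lower (1.3 to 1.95) and met no call. With NAA in arf7 none of these relatives met a call, at 1.2-fold lower for GSTL2, 1.48-fold for DHAR1, 1.21-fold for DHAR2 and 1.1-fold for DHAR3.

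**Figure D3:**
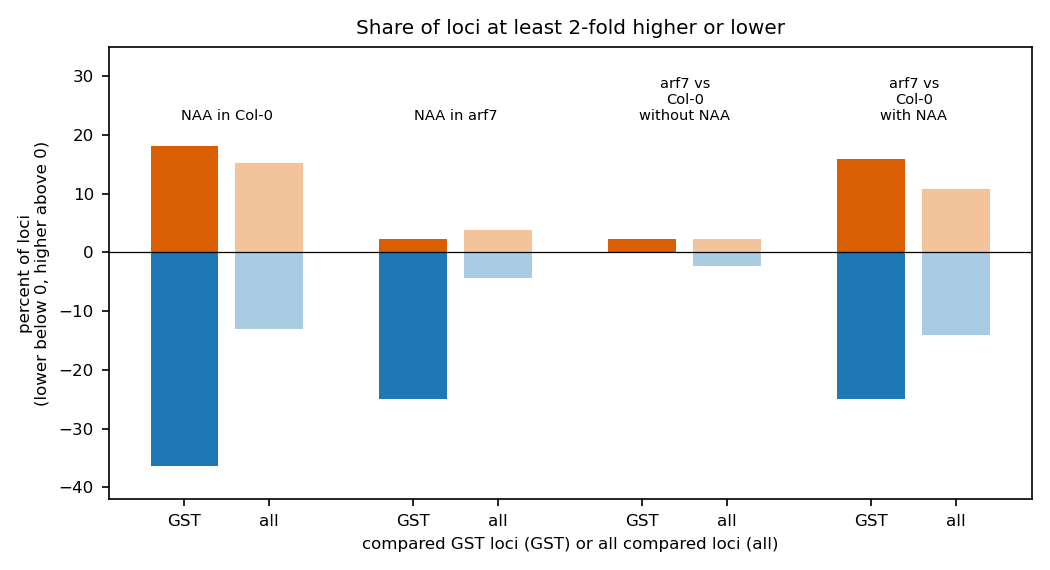
Percent of the 44 compared GST loci (dark) and of all 17317 compared loci (pale) that were at least 2-fold higher (above 0) or lower (below 0) with a counting interval excluding 1, in the 4 comparisons. The GST bar for lower loci reaches 36.4% with NAA in Col-0 and 25.0% with NAA in arf7, against 13.1% and 4.33% of all loci.

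With NAA in arf7, 8 of the 16 GST loci that were lower in Col-0 were called lower as well. Of the 8 that were higher in Col-0, 1 was called higher. Over all compared loci, 311 of the 2265 lower in Col-0 and 402 of the 2626 higher were called in the same direction. GSTF14, GSTU9 and AT1G77290, among the 8 higher, passed the level minimum only through the Col-0 NAA library. Among the 44 compared loci, 11 were lower (25.0%, against 4.33% of all compared loci) and 1, GSTU14, was higher (2.27%, against 3.91%). The median log2 fold was -0.35, beside 0.00 over all loci, and the summed level was 8204 CPM in the mock and 5381 CPM in the NAA library, 1.52-fold lower. Of the 11 lower loci, 8 belonged to tau and 3 to phi. GSTF6, GSTF7, GSTF9, GSTU5, GSTU6, GSTU11, GSTU12 and GSTU20 were lower in Col-0 too, while GSTU2, GSTU4 and GSTU17 met the call in arf7 and not in Col-0. GSTU17, which takes part in phytochrome A signalling, had 91 reads without and 125 with NAA in Col-0, and 154 without and 22 with NAA in arf7. The arf7 NAA library was the lowest and arf7 mock the highest, a fold of 7.16 lower with NAA (4.57 to 11.8), whereas Col-0 was 1.49-fold higher (1.12 to 1.97) without meeting the call. GSTU4 had 48, 36, 53 and 12 reads, 4.52-fold lower in arf7 (2.38 to 9.29). GSTU2 had 26, 41, 33 and 16 reads, 2.11-fold lower in arf7 (1.13 to 4.11).

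The response of arf7 was set against that of Col-0 as a difference of log2 folds, called weaker where a locus met the call in Col-0 and arf7 lay at least 1 log2 unit against that direction, with a 95% counting interval excluding 0. A response was called stronger where the locus met the call in arf7 and its log2 fold there exceeded that of Col-0 by 1 unit or more in the direction of the arf7 change, again with an interval excluding 0. Of the 44 loci, 13 were weaker (29.5%, against 18.8% of all compared loci) and 3, namely GSTU2, GSTU4 and GSTU17, were stronger (6.82%, against 2.44%). Among the GST loci that met the call in Col-0, 5 of the 8 higher and 8 of the 16 lower were weaker, whereas over all loci the shares were 67.2% and 66.0%. The difference between these shares was not tested. GSTF14, GSTU9 and AT1G77290, among the 8 higher, passed the level minimum only through the Col-0 NAA library. GSTU9 is among the 5 called weaker, so that its weaker response was in part built into its choice.

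The largest differences among loci that averaged 5 CPM or more were those of GSTU17, at -3.38 log2 units (-4.13 to -2.63), and AT5G12110, at 2.93 (2.3 to 3.57). GSTU12 had 2.43 (1.6 to 3.26), AT4G19880 with 2.04 (1.37 to 2.7) and GSTU25 with -1.87 (-2.56 to -1.18). A positive value stands for a fall that was smaller in arf7, or a rise that was larger. GSTU13 differed by 1.54 (1.42 to 1.66), GSTF8 by 1.05 (0.99 to 1.11), GSTU27 by -1.63 (-2.03 to -1.23) and GSTU24 by -1.61 (-2.15 to -1.06). GSTU4 differed by -1.83 (-2.92 to -0.75) and GSTF6 by 1.32 (0.14 to 2.5). GSTU26 differed by -1.49 (-1.8 to -1.18) and was neither weaker nor stronger by the rule, since it met no call for NAA in either genotype. GSTU19 came close to the limit, at 0.96 (0.87 to 1.05), and was not called. By contrast, GSTU5 and GSTU20 differed by -0.68 (-0.83 to -0.53) and -0.86 (-1.23 to -0.49), toward a larger fall in arf7. Over the 44 loci the log2 folds of the genotypes, which share no library, had a Pearson correlation of 0.49 and the same sign in 31, as a description over genes that are not independent of each other. Over all 17317 compared loci the same correlation was 0.37, with the same sign in 10329.

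**Figure D4:**
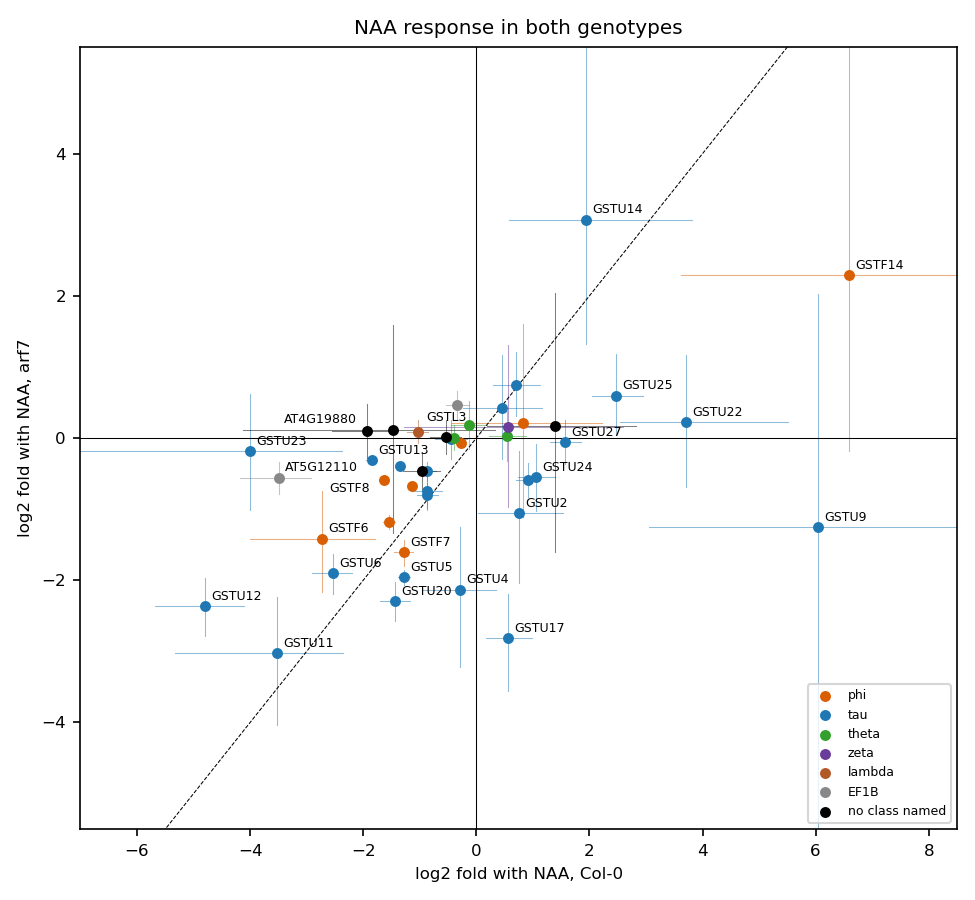
Log2 fold with NAA in Col-0 (horizontal axis) and in arf7 (vertical axis) of the 44 compared GST loci, coloured by class, with 95% counting intervals as thin lines and the line of equal response dashed. GSTU12, GSTU11, GSTU6 and GSTF6 lie low in both genotypes, GSTU25, GSTU27 and GSTU22 lie to the right near 0 in arf7, and GSTU17 lies low in arf7 beside a small positive value in Col-0.

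Between the genotypes without NAA the GST loci were close to each other. GSTU22 was higher in arf7 mock than in Col-0 mock, 4.05-fold (1.48 to 13.8) at 20 against 5 reads, which made 1 of the 44 loci higher (2.27%, against 2.33% of all compared loci). No locus was lower (against 2.3%), and the median log2 fold was -0.02, beside 0.01 over all loci. The share called was thus near the background. The rank correlation of the GST levels between the mock libraries was 0.988 over the 44 loci. The arf7 mock library had fewer reads in the light-grown leaf list than Col-0 mock, with 3 of 4 genes lower.

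With NAA, arf7 and Col-0 differed in both directions. Of the 44 loci, 7 were higher in arf7 (15.9%, against 10.8%) and 11 were lower (25.0%, against 14.1%), with a median log2 fold of 0.02. At a minimum mean of 5 CPM 6 of 34 were lower, against 11.9% of all loci at that minimum. The median there was 0.23, beside 0.03 over all loci. The summed level was 1.47-fold higher in arf7. This comparison shares the Col-0 NAA library with the NAA comparison in Col-0, so the lists below restate in part the same reads. Those higher in arf7 were GSTF6, GSTF8, GSTU12, GSTU13, GSTU23, AT4G19880 and AT5G12110, with 2.43-fold for GSTF8 (2.35 to 2.51), 2.37-fold for GSTU13 (2.21 to 2.55) and 10.7-fold for AT5G12110 (7.04 to 17.0). Those lower in arf7 were GSTU2, GSTU4, GSTU9, GSTU17, GSTU22, GSTU24, GSTU25, GSTU26, GSTU27, GSTF14 and AT1G77290. GSTU9, GSTF14 and AT1G77290 passed the level minimum only through the Col-0 NAA library, so that a lower level in arf7 was built into their choice. GSTU17 was 6.2-fold lower (3.92 to 10.3), GSTU25 4.02-fold (3.08 to 5.32) and GSTU24 3.86-fold (2.93 to 5.14). GSTU26, with 326 reads without and 565 with NAA in Col-0, and 351 without and 239 with NAA in arf7, was 2.58-fold lower in arf7 (2.21 to 3.01), although neither genotype met the call for NAA. Of the 11 loci lower in arf7, 9 were tau, GSTU9 included.

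GST genes often lie side by side in the genome, and 30 of the 53 loci fell into 10 groups of neighbours no more than 10 kb apart. The spans are given in TAIR10 as in the deposited annotation. In Col-0, 5 groups held calls in 1 direction, 2 held calls in both and 3 held none. GSTU24, GSTU25 and GSTU26 (chr1:5869846-5876545) had log2 folds of 1.06, 2.47 and 0.91 in Col-0, and -0.55, 0.60 and -0.59 in arf7. GSTU12 and GSTU11 (chr1:26334250-26338795) were both lower in both genotypes, as were GSTF7 and GSTF6 (chr1:658657-662427).

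Calls in opposite directions lay side by side in 2 groups. GSTU13 and GSTU14 (chr1:9425460-9428716) had log2 folds of -1.85 and 1.94. In the group of GSTU23, GSTU22, GSTU21, GSTU20 and GSTU19 (chr1:29467437-29487906), GSTU22 was higher, at 3.71, between loci that were lower, namely GSTU23 at -4.01, GSTU20 at -1.43 and GSTU19 at -1.35. GSTU23 had 43, 2, 29 and 26 reads, so its fold of 19.9 lower in Col-0 (5.18 to 169) rests on few reads. The 7 loci GSTU1 to GSTU7 (chr2:12617936-12632473), of which GSTU3 was not compared, had 2 lower in Col-0 and 4 lower in arf7. The pair GSTU18 and GSTU17 (chr1:3395558-3398358) differed in arf7 with NAA, at log2 folds of -0.02 and -2.81.

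**Figure D5:**
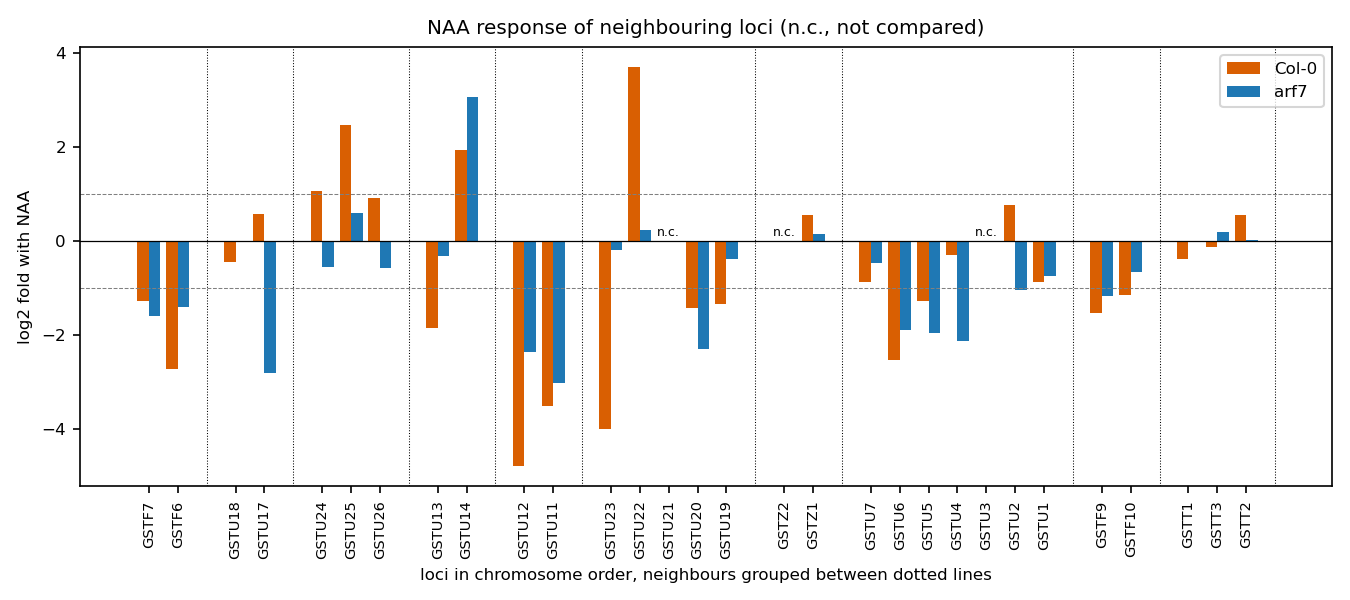
Log2 fold with NAA (vertical axis) in Col-0 (orange) and arf7 (blue) for the 30 GST loci that lie within 10 kb of another, in chromosome order, with groups between dotted lines and dashed lines at a 2-fold change. GSTU3, GSTU21 and GSTZ2 were not compared and carry n.c. in place of bars. GSTU22 points up at 3.71 in Col-0 between GSTU23 and GSTU20, which point down, and GSTU14 points up beside GSTU13, which points down.

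Other genes of glutathione metabolism were read from lists, and the counts below stand beside 15.2% higher and 13.1% lower of all compared loci with NAA in Col-0, and 3.91% higher and 4.33% lower in arf7. Of 4 compared genes of glutathione synthesis and reduction, the synthetase GSH2 was lower with NAA in Col-0, 2.43-fold (2.23 to 2.66). It had 1798, 683, 1612 and 1459 reads. The reductase GR1 was higher, 2.28-fold (1.29 to 4.16), at only 19, 40, 17 and 19 reads. Of 9 genes of sulfate reduction and cysteine supply, 3 were lower in Col-0 and 0 higher, and 2 were lower in arf7. They included the ATP sulfurylase APS1, with 5001, 1920, 5275 and 2800 reads, 2.41-fold lower in Col-0 (2.29 to 2.54), and APS3, 6.59-fold lower in Col-0 (5.52 to 7.91) and 3.5-fold lower in arf7 (3.08 to 3.99). The serine acetyltransferase SERAT2;2 was 2.73-fold lower in Col-0 (2.51 to 2.97). In the breakdown of glutathione and its conjugates, 3 of 8 genes were higher in Col-0 and 2 were lower. Among the higher ones, GGT1 had 10, 22, 5 and 3 reads and GGCT2;1 had 6, 18, 7 and 3, so these calls rest on few reads. GGP1, a peptidase acting on glutathione conjugates, had 4109 reads without and 597 with NAA in Col-0, and 4921 without and 1813 with NAA in arf7, 6.37-fold lower in Col-0 (5.84 to 6.95) and 2.78-fold lower in arf7 (2.63 to 2.93). The phytochelatin synthase PCS1, which can also cleave conjugates, was 4.97-fold lower in Col-0 (4.55 to 5.44), and the glutathione-degrading enzyme GGCT2;2 was 2.94-fold higher in Col-0 (2.62 to 3.32) and 2.26-fold higher in arf7 (2.0 to 2.56).

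None of the 5 vacuolar ABCC transporters met a call, and ABCC4 had 1584, 911, 2043 and 1897 reads. ABCC1, ABCC2, ABCC3 and ABCC5 had only 9 to 44 reads in a library, so that their counting intervals were wide. Of a list of 7 genes, TGA factors and their partner SCL14, 4 were compared and none met a call, with 774, 730, 641 and 968 reads for SCL14 and 484, 257, 369 and 226 for TGA3. Of 7 compared glutathione peroxidases, GPX7 was lower with NAA in Col-0 and GPX1 was higher with NAA in arf7. GPX7 had 17, 0, 15 and 8 reads, so its call rests on few reads and its fold, at least 5.24, is a bound against the floor. GPX1 had 1048, 823, 600 and 1385 reads and was 2.26-fold higher in arf7 (2.05 to 2.49). Among 8 compared genes of xenobiotic and oxylipin responses, 3 were higher and 3 lower with NAA in Col-0, and 0 higher and 3 lower in arf7. CYP81D11, a cytochrome P450 induced through as-1 elements, had 253 reads without and 1553 with NAA in Col-0, and 502 without and 398 with NAA in arf7. It was 6.64-fold higher with NAA in Col-0 (5.81 to 7.61), like GSTU25 in that Col-0 NAA stood above the other libraries. Unlike GSTU25, CYP81D11 was also higher in arf7 than in Col-0 without NAA, 2.01-fold (1.73 to 2.35). In that comparison 3 of the 8 genes were higher and 0 lower, against 2.33% and 2.3% of all compared loci. UGT74E2, a glucosyltransferase of the auxin indole-3-butyric acid, had 8, 82, 73 and 33 reads, and was 11.1-fold higher with NAA in Col-0 (5.37 to 26.5) and 2.26-fold lower in arf7 (1.48 to 3.53). CYP81D8 and OPR1, an oxophytodienoate reductase, were lower with NAA in both genotypes.

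The authors' deposited tables of comparisons list 5 GST loci as higher and 17 as lower with NAA in Col-0, 1 and 10 with NAA in arf7, 6 and 8 in arf7 against Col-0 with NAA, and 0 in either direction without NAA. Each listed locus also met the call used here in the same direction, with the exception of AT5G42150 with NAA in Col-0, for which the authors' deposited table gives a log2 ratio of -1.04. Its 246 and 116 reads were 1.96-fold lower here (1.57 to 2.47). In reverse, some calls made here are not listed by the authors. These were GSTU14, GSTU24 and AT1G77290 with NAA in Col-0, and GSTU2 with NAA in arf7. Between the genotypes they were GSTF6, GSTU2, GSTU4 and AT1G77290 with NAA, and GSTU22 without NAA.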

How the data were processed

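Total RNA of 4 libraries, 1 per combination of genotype and treatment, was reverse transcribed from random primers, and an Illumina HiSeq or another sequencer was used, per the labels. For each transcript model the authors deposited the count of unique reads, an RPKM value and the percent of the model that reads cover, per the file headers. Recomputing RPKM from the counts gave the deposited values within rounding, and models with no read are not listed. TAIR10 is the build, per the submitters' processing notes, and the sources used here name no aligner or counter. Further deposited files of the authors are tables of a log2 ratio of RPKM values and an FDR, a form of q-value, for each model, whose 16 columns of per-sample values were not used.

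Counts were summed per locus, and the RPKM of a locus uses its longest listed model. TMM factors (edgeR 4.0.16 in R 4.3.3), taken over loci averaging 1 CPM or more, were 0.991 (mock) and 0.947 (NAA) in Col-0 and 1.04 (mock) and 1.03 (NAA) in arf7. With 1 library per group no p-value was computed. A call needed a 2-fold or larger difference whose 95% interval, exact (Clopper-Pearson) and conditional on the summed count of the 2 libraries, excludes 1, and was made over all 17317 loci. A count of 0 was set at 3 for a bound, and log2 folds used a pseudocount of 0.5. Differences of log2 folds have Wald counting intervals.

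The loci, lists and motifs were chosen with earlier results of these data known. Full values were given for the 10 loci averaging 5 CPM or more that differed most in each comparison, the 6 with the highest mean RPKM, the 10 with the largest difference among those whose response was called weaker or stronger in arf7, and 10 with known ties to auxin or stress. Other loci were named where they met a call, and further loci shown beside them were chosen after their values were seen. Alternatives were library totals, DESeq2 1.42.0 size factors, a minimum of 0 or 5 CPM, single transcript models, loci with 1 listed model, a fold of 1.5, a pseudocount of 2, and loci of a named class.

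Where reads could fit more than one copy, counting of unique reads can move them. Near-identical coding sequences (at least 90%) were found for GSTF6 and GSTF7, GSTF2 and GSTF3, and GSTT3 with GSTT1 and GSTT2. The labels do not say that strand was used. AT1G30230 was covered over 9.32% of its model.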

Additional observations from a re-analysis of the deposited data

Results flagged for a closer look

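Responses of 5 GST loci pointed in opposite directions in the genotypes, each with a counting interval excluding no change. With 1 library per group, the difference was not tested beyond counting error. GSTU17 had an arf7 response minus a Col-0 response of -3.38 on the log2 scale, the furthest from 0 of the 5. The value was -1.61 for GSTU24, -1.49 for GSTU26 and -1.81 for GSTU2, which like GSTU17 had more reads with NAA in Col-0 and fewer with NAA in arf7. AT1G30230, an EF1B subunit, went the other way at 0.80, with 457 reads without and 335 with NAA in Col-0, and 346 without and 488 with NAA in arf7.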

How the results depend on the processing

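With 1 library per group no replicate could be left out, and intervals cover counting error only. No paired analysis was possible because each group holds 1 library. Of 150 summary values under the alternatives, 11 moved. A minimum mean of 5 CPM left 34 GST loci. Of these, 3 were higher with NAA in Col-0 (against 12.6% of all loci at that minimum), at a median log2 fold of -0.87. Under that minimum 0 were higher with NAA in arf7 (against 2.91%) and 0 were higher in arf7 without NAA (against 1.52%). A further 6 were lower in arf7 with NAA (against 11.9%), at a median of 0.23. Of 44 GST loci, a fold of 1.5 gave 3 higher with NAA in arf7, against 8.42% of all loci. It gave 3 higher in arf7 without NAA (against 5.15%) and 12 higher in arf7 with NAA (against 18.4%). Library totals gave 2 higher in arf7 without NAA, against 2.77%. Leaving out the 7 loci with near-identical copies, an alternative chosen after seeing the data, gave a median of -0.87 with NAA in Col-0. The median of arf7 against Col-0 with NAA lies near 0 and changed sign under some settings, at -0.05 with no minimum and -0.11 over loci of a named class. Library totals shifted the median of all loci by 0.12 in arf7 against Col-0 with NAA, and having no minimum shifted it by 0.12 with NAA in Col-0. For 22 named loci, 840 of 852 single values kept their status as called or not called. No value with a call turned in direction, whereas changes of sign among values without a call were not counted. GSTU24 lost its call with NAA in Col-0 under library totals, and 11 more were called at a fold of 1.5. Loci under about 5 CPM had wide counting intervals, which limits GSTU9, GSTU14, GSTU22, GSTU23 and GSTF14.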
